A study of Mus musculus with 68 samples.

Results

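The Zscan4 genes and the Tcstv genes are short-lived transcripts of the mouse 2-cell embryo, and their levels were followed through the development of embryos made by somatic cell nuclear transfer (SCNT). The members were picked out by gene name, as the rows called Zscan4a to Zscan4f and the rows called Tcstv1, Tcstv3, AF067061 and B020031M17Rik. This gave 9 of the 24421 reference genes in the tables, namely 5 Zscan4 copies and 4 Tcstv copies, and no row was named Zscan4e. The RNA was measured by Smart-seq2, in which polyadenylated RNA of 10 blastomeres is copied and sequenced, and levels are given as transcript abundance corrected for gene length and depth (TPM). The first experiment held 3 libraries of the cumulus cells (CCs) that served as nuclear donors and 53 libraries of untreated SCNT embryos. Donor cells and enucleated oocytes both came from adult B6D2F1 hybrid females, and the reconstructed oocytes were activated in strontium with cytochalasin B. The SCNT stages were 6 and 14 h post activation (hpa), the early and late 2-cell stage (E2C and L2C), the 4-cell stage (4C), the 8-cell stage (8C), the morula, and the 2 blastocyst lineages, namely the ICM (inner cell mass) and the TE (trophectoderm), with 5 libraries at 4C and 6 at every other stage. The second experiment held the ICM and TE of C57BL/6j fertilized blastocysts, with 2 libraries each of a control group, of embryos injected as zygotes with a morpholino against Max (Max MO) and of embryos injected with one against Mcrs1 (Mcrs1 MO). The control libraries are labelled control and untreated, and the protocol names a random 25-base morpholino as the control injection. For these RNA libraries the paper gives a different morpholino concentration in each group, highest for the control. The study describes these libraries as biologically independent samples, but the labels do not say which embryo collection each came from, and p-values measure the spread between libraries.

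ZSCAN4 is a nuclear protein with a SCAN domain and zinc fingers. In fertilized embryos its genes are switched on in a brief burst at the 2-cell stage, and in embryonic stem cells they are on in only a small fraction of cells at any time, where the protein is known for telomere lengthening by recombination and for genome stability. The transcription factor DUX is a known activator of this program. TCSTV1 and TCSTV3 are small proteins named after their variable transcripts at the 2-cell stage and have also been linked to telomere length in embryonic stem cells. Both families are used as markers of the totipotent, 2-cell-like state.

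The 5 Zscan4 copies lay within 608.1 kb of chromosome 7 (mm10), with no other reference gene of the tables between them. Zscan4a spanned 10794241 to 10799065 on the minus strand, Zscan4b 10900740 to 10905050 on the minus strand, Zscan4c 11005745 to 11010547 on the plus strand, Zscan4d 11161643 to 11166148 on the minus strand and Zscan4f 11397915 to 11402318 on the plus strand. Zscan4a is annotated as a pseudogene in GENCODE. The 4 Tcstv copies lay within 424.9 kb of chromosome 13. Tcstv1 spanned 119893387 to 119894785 and B020031M17Rik 119949357 to 119950806, both on the minus strand, and AF067061 spanned 120263114 to 120264517 and Tcstv3 120316862 to 120318261, both on the plus strand. All 9 genes had a row in each of the 68 tables.

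Reads could be split between the copies, and more so in the Zscan4 family. GENCODE vM21 transcripts of the Zscan4 copies were 94.8% to 97.9% identical to each other, and those of the Tcstv copies 86.6% to 92.7%. Of all 100-base windows of a transcript, 10.5% in Zscan4f, 21.3% in Zscan4b, 27.2% in Zscan4c, 60.9% in Zscan4a and 70.4% in Zscan4d occurred in no other gene, with the annotated Zscan4 pseudogenes counted as other genes. For Tcstv3 and Tcstv1 this share was 92.2% and 93.6%, and for AF067061 and B020031M17Rik it was 100%. The values of single Zscan4 copies are therefore uncertain and the summed TPM of the family is given beside them, while the 4 Tcstv copies could be told apart over most of their length.

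The promoters are shown because the copies that rose together at L2C could be compared there. RefSeq promoters (GRCm38.p6, the same build as mm10) were given for 5 of the 9 genes, and the 250 bases before the start of transcription are printed 5′ to 3′ on the strand of the gene. Capitals mark a TATA box (TATAAA), a core of homeodomain sites (TAATCC, or GGATTA on the other strand) and the 10-base run TGATTCAATT, the longest that the Zscan4c and AF067061 promoters share. The windows lay at chr7:10905051-10905300 (Zscan4b), chr7:11005495-11005744 (Zscan4c), chr7:11166149-11166398 (Zscan4d), chr7:11397665-11397914 (Zscan4f) and chr13:120262845-120263094 (AF067061).
Zscan4b: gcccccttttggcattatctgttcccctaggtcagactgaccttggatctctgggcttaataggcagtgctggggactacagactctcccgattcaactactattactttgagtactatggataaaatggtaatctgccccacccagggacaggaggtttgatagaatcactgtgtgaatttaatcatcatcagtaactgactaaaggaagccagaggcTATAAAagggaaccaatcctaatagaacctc
Zscan4c: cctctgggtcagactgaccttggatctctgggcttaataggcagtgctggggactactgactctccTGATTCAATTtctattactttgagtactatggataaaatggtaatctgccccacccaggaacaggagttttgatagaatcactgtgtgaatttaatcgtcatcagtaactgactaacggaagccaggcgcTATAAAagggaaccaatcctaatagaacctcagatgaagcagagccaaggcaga
Zscan4d: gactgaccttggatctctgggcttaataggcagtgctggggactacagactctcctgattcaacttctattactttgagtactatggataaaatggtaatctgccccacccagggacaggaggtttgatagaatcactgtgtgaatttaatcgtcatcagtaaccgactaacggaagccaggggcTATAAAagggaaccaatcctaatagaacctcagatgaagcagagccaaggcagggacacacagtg
Zscan4f: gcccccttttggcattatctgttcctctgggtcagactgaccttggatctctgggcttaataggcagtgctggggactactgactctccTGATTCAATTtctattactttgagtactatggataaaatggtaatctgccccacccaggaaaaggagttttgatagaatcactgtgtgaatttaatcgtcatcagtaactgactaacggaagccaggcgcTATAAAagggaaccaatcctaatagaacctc
AF067061: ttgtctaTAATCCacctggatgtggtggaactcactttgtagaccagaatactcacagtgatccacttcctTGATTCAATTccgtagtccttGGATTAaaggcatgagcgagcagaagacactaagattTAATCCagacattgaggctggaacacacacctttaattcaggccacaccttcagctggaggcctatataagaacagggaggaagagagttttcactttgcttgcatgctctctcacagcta

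The 4 Zscan4 promoters were 94.7% to 99.6% identical over their overlap without gaps, and between 35.7% and 36.5% identical to that of AF067061. TATAAA occurred in all 4 of them and not in that of AF067061, against 12.4% of 32851 mouse promoters of the same length with the motif on either strand. Only these exact letters were searched for, and the AF067061 promoter holds the similar letters TATATAAG. The AF067061 promoter held TAATCC 3 times on the 2 strands together, and 6.25% of promoters held it at all. The letters GATTNAATC, a palindromic core searched for as DUX-like, occurred among these 5 only in the AF067061 promoter, and in 0.247% of all promoters. Here too only exact letters were searched for. The run TGATTCAATT, without its first letter, differs from this core only in its last letter. The shorter DUX-like letters TGATT, on either strand, occurred in all 5 promoters and in 33.7% of all promoters. TGATTCAATT occurred in the promoters of Zscan4c, Zscan4f and AF067061 and in 0.0426% of all promoters. That run was chosen from these sequences, and a match of letters is not a binding site.

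A pair of library properties bears on the values that follow. L2C replicate 1 stood apart, with 30.4% of its TPM on reference genes against 51.4% to 61.8% in the other L2C libraries, and 17.2% of its TPM on the mitochondrial genome against 0.805% to 3.02%. The summed TPM of the 26 other 2-cell genes of a list used below was 88.4 in that library and 691 to 1609 in the other L2C libraries, although its profile over all genes still matched L2C best. The profile of 4C replicate 4 matched 8C slightly better than 4C (r of 0.934 against 0.929), and 3 of the 6 SCNT ICM libraries matched the TE best. Replicates 1 to 3 and replicates 4 to 6 also differed at several stages, and since the labels name 2 sequencing providers without saying which library went to which, values within each set of replicates are given beside the pooled ones. Over the 68 libraries between 1.00 and 5.17 gigabases were aligned and between 6177 and 11771 genes reached 1 TPM. Among fertilized blastocysts, the control libraries had 85.5% to 90.3% of their TPM on reference genes. The Max MO and Mcrs1 MO libraries had 93.6% to 94.4%. Of 8 genes in general use, Actb, Ppia and Eef1a1 were at 1 TPM or more in every library, Rpl3, Tbp, Pgk1 and Tuba1b were below it in 1 or 2 libraries each, and Ldha, whose place Ldhb takes in early embryos, in 13. Markers of CCs, 8 genes with a summed TPM of 1379 to 2108 in the CC libraries, summed to at most 39.6 TPM in embryos up to the morula.

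In CCs the families were silent at this depth. All 4 Tcstv copies were listed at 0 in the 3 CC libraries, and the summed Zscan4 TPM was 0, 0.0928 and 0. The 0.0928 in replicate 2 came from Zscan4d and Zscan4f. At 6 hpa, only hours after the donor nucleus entered the oocyte, the picture was already split between the families. The Zscan4 sum was 5.12 ± 2.66 TPM (SD, n = 6), while the Tcstv sum was 589 ± 150 TPM (SD, n = 6). Nearly all of the latter was Tcstv1 and Tcstv3. The 6 oocyte marker genes summed to between 4293 and 8436 TPM at the same time point and were at or below 2.32 TPM in CCs, so RNA that the oocyte supplied was abundant in these libraries; its part in the Tcstv level was not tested. In bulk libraries such as these, fewer blastomeres with a transcript and less of it per blastomere cannot be told apart.

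The Zscan4 sum peaked at L2C. Its 6 libraries held 3.34, 10.2, 3.8, 5.76, 3.35 and 4.23 TPM at 6 hpa in the order of the replicate numbers. At 14 hpa they held 0.404, 7.41, 14.6, 11.3, 13.3 and 10.2 TPM. At E2C they held 80.6, 3.55, 0.952, 4.58, 6.82 and 1.06 TPM. E2C replicate 1 alone was at the level seen later, and the other 5 E2C libraries overlapped with 6 hpa and 14 hpa. At L2C the sum was 0.146, 37.9, 19.9, 76.7, 74.5 and 88.1 TPM. All L2C libraries except replicate 1 were above 5 of the 6 E2C libraries, and replicate 1 was the lowest of both stages. At 4C it was 0.0496, 0.112, 0.0174, 0.362 and 0.465 TPM. From 4C on the family was at or near 0, with means of 0.108 TPM at 8C, 0.106 in the morula, 0.0444 in the ICM and 0.0112 in the TE. In the order of the means (L2C, E2C, 14 hpa, 6 hpa, 4C and later), the only neighbours whose libraries did not overlap were 6 hpa and 4C.

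**Figure D1:**
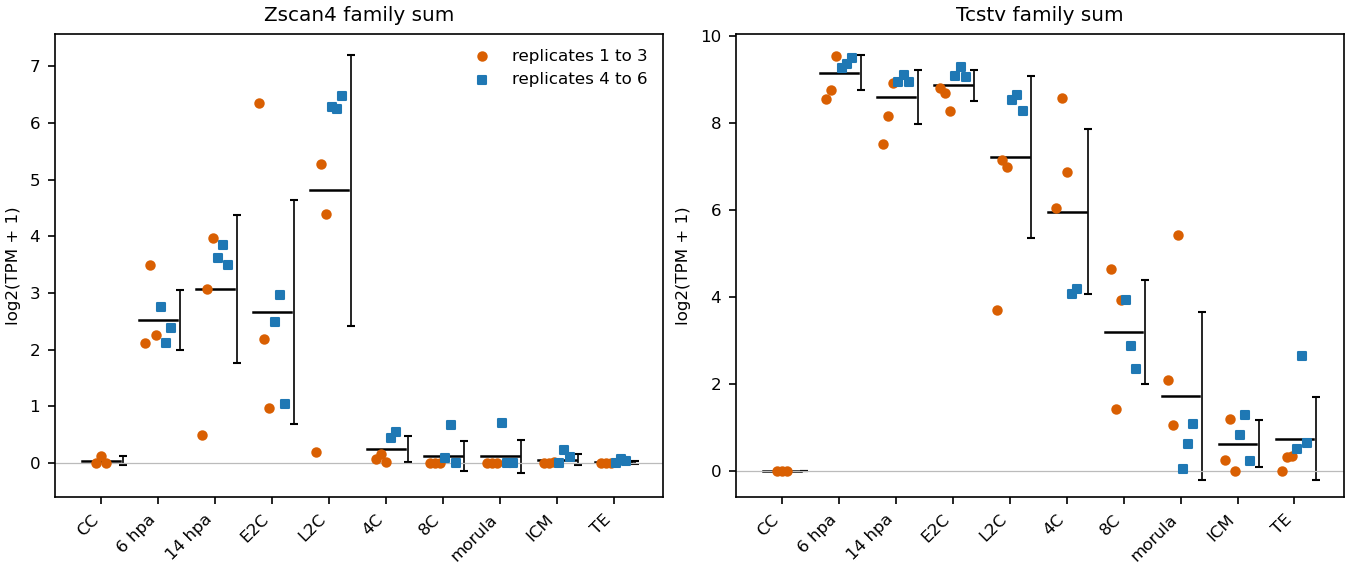
Summed log2(TPM + 1) of the Zscan4 copies (left) and of the Tcstv copies (right) in CCs and at each SCNT stage, with 1 point per library, the mean as a line and the SD as a bar. The Zscan4 sum is highest at L2C (mean 49.5 TPM) apart from E2C replicate 1 (80.6 TPM), and the Tcstv sum is highest at 6 hpa (mean 589 TPM).

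Differences between consecutive stages were tested with limma on log2(TPM + 1) over 11867 genes, and a call required 2-fold or more together with a Benjamini-Hochberg adjusted p below 0.05. The sum of a family was entered as 1 gene in place of its copies. From 6 to 14 hpa the Zscan4 sum changed by 0.56 (standard error 0.64, limma adjusted p = 0.742), and from 14 hpa to E2C by -0.41 (standard error 0.64, limma adjusted p = 0.854). Neither was called, and the 2 sets of replicates went opposite ways. Replicates 1 to 3 gave -0.11 and 0.66. Replicates 4 to 6 gave 1.23 (limma adjusted p = 0.0126) and -1.49 (limma adjusted p = 0.00728). From E2C to L2C the Zscan4 sum rose by 2.14 (standard error 0.64, limma adjusted p = 0.00598), where the median of all genes rose by 0.26. Replicates 1 to 3, which hold both E2C replicate 1 and L2C replicate 1, gave a rise of 0.12, and replicates 4 to 6 one of 4.17. It was 3.8 with both of those libraries left out, a choice made after the data were seen. In the exact two-sided permutation test of the 6 against 6 libraries it had p = 0.119. From L2C to 4C the Zscan4 sum fell by 4.56 on the log2 scale (standard error 0.67, limma adjusted p = 1.7e-07), by 3.21 among replicates 1 to 3 and by 5.83 among replicates 4 to 6, while the median of all genes fell by 0.33. At 8C it differed from 4C by -0.12 (limma adjusted p = 0.936).

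The single Zscan4 copies moved together. They share reads, so their calls are not independent of each other. Of the 5 copies 4 passed the filter of a mean TPM of at least 1, and these 4 rose from E2C to L2C, where 23.7% of all genes were called higher. Zscan4a and Zscan4f passed the filter only through their levels at L2C, and Zscan4a dropped out of the test when L2C replicate 5 was left out. In the fit without a filter 4 of the 5 copies were called higher, against 11.9% of genes. Their rises were 1.71 for Zscan4a, 1.98 for Zscan4c, 1.5 for Zscan4d and 1.87 for Zscan4f, with limma adjusted p from 0.00088 to 0.0132. When only the 2 stages were fitted, none of the 4 was called, and neither was any copy among replicates 1 to 3, where Zscan4c changed by 0.36, Zscan4d by 0.17 and Zscan4f by -0.10. Replicates 4 to 6 gave rises from 2.82 (Zscan4d) to 3.83 (Zscan4f). The call of Zscan4d was lost without L2C replicate 6 (limma adjusted p = 0.0556) and with a pseudocount of 0.1 (limma adjusted p = 0.132). The same 4 copies fell from L2C to 4C, with changes from -2.45 (Zscan4a) to -3.39 (Zscan4c), where 26.6% of all genes were called lower. No Zscan4 copy was called from 6 to 14 hpa, where 11.1% of genes were called in either direction, from 14 hpa to E2C, where 5.83% were, or from 4C to 8C. At those 3 steps 0 of the 4 had an unadjusted limma p under 0.05. The Tcstv copies were not called at the first 2 of these steps either, where B020031M17Rik from 14 hpa to E2C was the only one with an unadjusted limma p under 0.05 (a change of 1.60, limma adjusted p = 0.129).

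Zscan4c, which encodes a full-length protein and is a copy much used in studies of the family, held 0.0665, 14.1, 9.48, 18.9, 18.5 and 24.5 TPM at L2C against 26.2, 1.73, 0.0834, 0.951, 1.5 and 0.135 at E2C. Zscan4d, known as a main copy of 2-cell embryos, held 0, 9.70, 5.39, 22.1, 14.0 and 25.2 TPM at L2C against 17.1, 0.764, 0.509, 2.40, 4.14 and 0.470 at E2C. In both copies replicate 1 was the highest library at E2C and the lowest at L2C. Zscan4f held 0, 7.91, 3.69, 25.6, 20.8 and 20.2 TPM at L2C, and Zscan4a held 0.0172, 5.52, 0.704, 8.70, 19.6 and 15.6. In both of these the libraries of replicates 4 to 6 were above those of replicates 1 to 3. Zscan4b was the lowest copy, with 0.0627 to 2.59 TPM over the 6 libraries at L2C, and did not pass the filter. In a fit of all 23938 genes above 0 it changed by 0.60 from E2C to L2C and by -0.99 from L2C to 4C, below the 2-fold threshold, at limma adjusted p = 0.0222 and 0.000211, where that fit called 13.8% of genes lower in the second step. On the log2(TPM + 1) scale a change in a gene this low is understated.

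**Figure D2:**
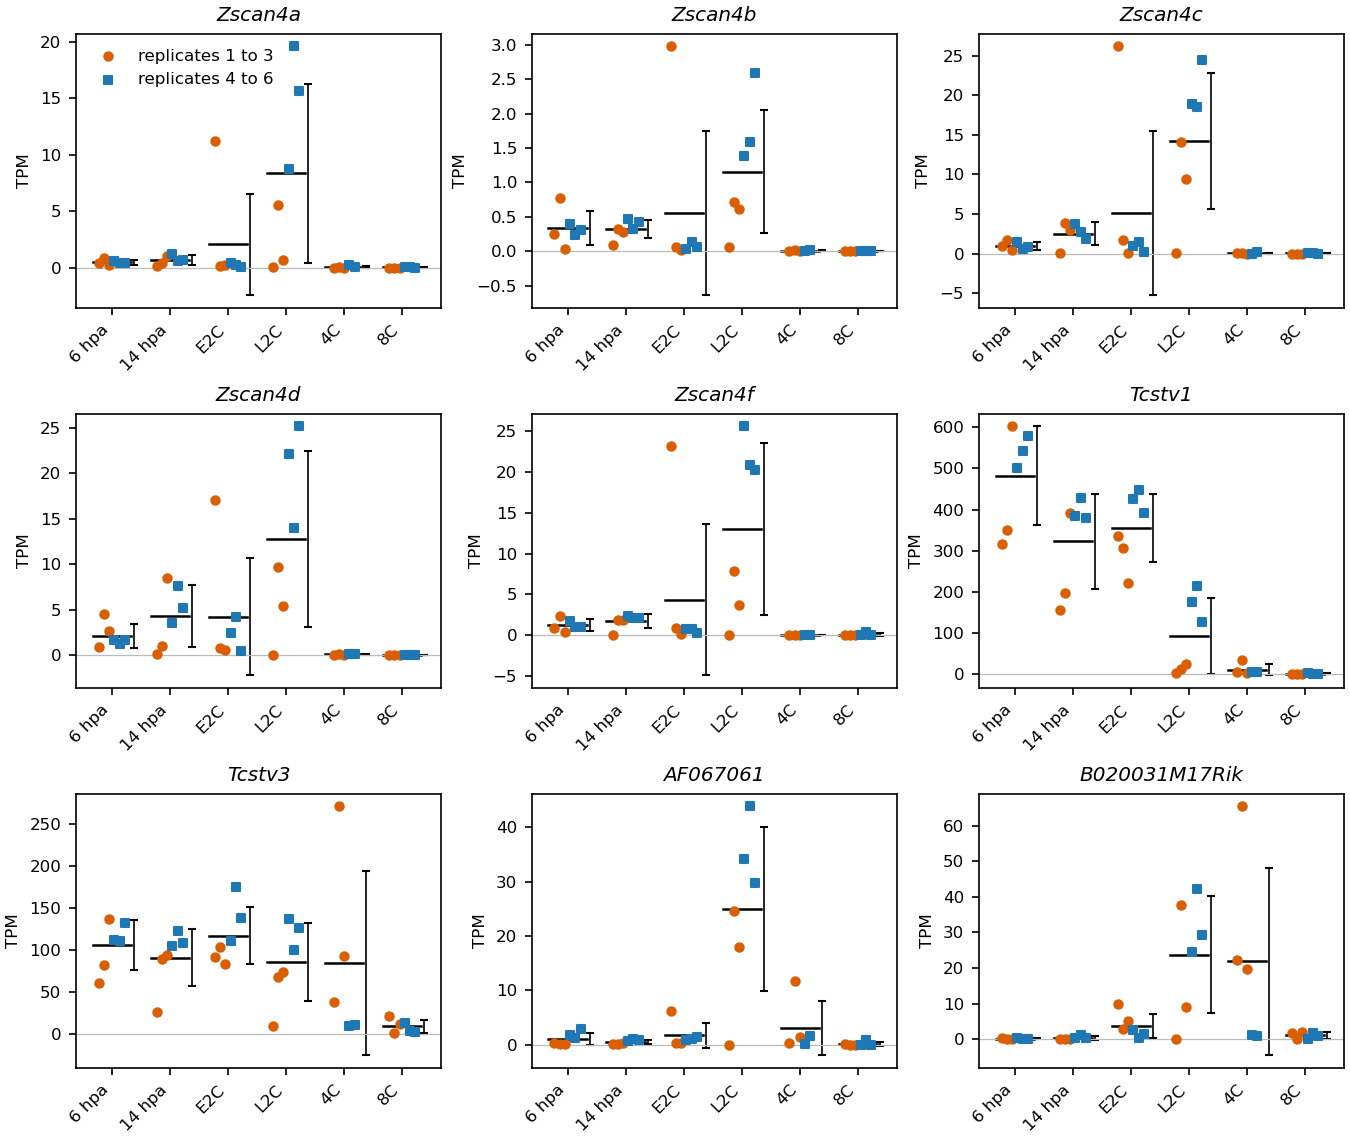
TPM of each of the 9 genes from 6 hpa to 8C on linear axes that differ between panels, with 1 point per library, the mean as a line and the SD as a bar. E2C replicate 1 is far above the other E2C libraries for the Zscan4 copies (26.2 against at most 1.73 TPM for Zscan4c), and Tcstv1 is the only gene that is highest at 6 hpa.

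The proportions of the copies within the Zscan4 sum overlapped between stages. The shares were taken over libraries with a sum of at least 1 TPM, 6 at 6 hpa and 5 each at 14 hpa, E2C and L2C, and no library from 4C on reached it. Zscan4d made up 40.8% ± 15.6 (SD) of the sum at 6 hpa, 41.9% ± 19.5 at 14 hpa and 25.8% ± 4.11 at L2C. Zscan4c made up 19.5% ± 6.05 (SD) at 6 hpa against 32.4% ± 9.96 at L2C. The ranges of Zscan4d at 6 hpa (26.6% to 69.9%) and at L2C (18.8% to 28.9%) overlapped. Across the 53 SCNT libraries the copies correlated with each other with Pearson r between 0.868 and 0.979, a description only, since they share reads.

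The Tcstv copies did not move together. Tcstv1 held 316, 351, 603, 500, 542 and 580 TPM at 6 hpa. It held 155, 196, 392, 385, 427 and 379 TPM at 14 hpa and 336, 307, 222, 426, 447 and 392 TPM at E2C. These 3 stages overlapped, and no difference between them was called (changes of -0.64 and 0.20). The labels name no pairs, and 6 to 14 hpa was the one step at which all same-numbered libraries deviated together (r from 0.142 to 0.390). Even there the same-numbered library was the best match for only 2 of 6. Tcstv1 and the Tcstv sum were lower at 14 hpa in 6 of 6 same-numbered pairs. The share of all genes that did so was not computed. With the replicate number as a block the change of Tcstv1 was still not called (limma adjusted p = 0.551). At L2C Tcstv1 held 2.77, 10.8, 24.7, 176, 214 and 125 TPM. Every L2C library was below every E2C library, which held for 5.67% of all tested genes. At L2C replicates 1 to 3 were below replicates 4 to 6 by a wide margin. The fall from E2C to L2C was by 3.05 on the log2 scale (standard error 0.57, limma adjusted p = 2.1e-05), where 11.2% of genes were called lower, by 4.77 among replicates 1 to 3 and by 1.32 among replicates 4 to 6. The exact permutation test gave p = 0.00216, the smallest this design allows, and adjusted p = 0.0595 over 55 tests. At 4C Tcstv1 held 4.56, 34.3, 2.78, 5.08 and 3.95 TPM, a fall by a further 2.50 (limma adjusted p = 0.00055). Among replicates 1 to 3 that second fall was by 0.21 and among replicates 4 to 6 by 4.94. From 4C to 8C it fell by 2.53 (limma adjusted p = 0.00149), to at most 1.26 TPM.

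Tcstv3, the other of the pair that gave the family its name, held its level longer. It held 60.6, 82.7, 137, 112, 111 and 132 TPM at 6 hpa and 92.2, 104, 83.1, 111, 175 and 138 at E2C. At L2C it held 9.15, 67.6, 73.5, 137, 99.7 and 126 TPM, and at 4C 38.3, 271, 92.6, 9.63 and 10.9 TPM. The stages from 6 hpa to 4C overlapped, and its changes from E2C to L2C (-0.77, 95% interval from -2.04 to 0.50) and from L2C to 4C (-0.69, 95% interval from -2.02 to 0.65) were not called. At 4C replicates 1 to 3 were above replicates 4 and 5, and the change from L2C was 1.42 in the first set of 3 replicates and -3.42 in the second. From 4C to 8C it fell by 2.47 (limma adjusted p = 0.00542), to between 1.69 and 22 TPM. Without 4C replicate 2 that fall was by 1.79 and was no longer called (limma adjusted p = 0.056).

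AF067061 had the largest rise of the 8 tested genes from E2C to L2C and fell again by 4C. It was low at 6 hpa (0.115 to 2.97 TPM), 14 hpa (0.0527 to 0.999 TPM) and E2C, where replicate 1 held 6.23 TPM and the others at most 1.46. At L2C it held 0.00724, 24.6, 17.9, 34.2, 43.9 and 29.7 TPM, so that 5 of the 6 L2C libraries were above all earlier libraries. At 4C it held 0.275, 11.8, 1.43, 0.0829 and 1.56 TPM. The rise from E2C was 2.93 (standard error 0.51, limma adjusted p = 6.9e-06). Replicates 1 to 3 gave 1.77 for it and replicates 4 to 6 gave 4.09. The fall to 4C was by 2.72 on the log2 scale (standard error 0.54, limma adjusted p = 4.0e-05). With replicates 1 to 3 alone neither change was called. AF067061 passed the filter only through its level at L2C. In the fit without a filter its rise and its fall were also called (limma adjusted p = 2.5e-05 and limma adjusted p = 0.00013), beside 11.9% of genes called higher and 13.8% called lower.

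B020031M17Rik rose at the same step and stayed up in part of the 4C libraries. It held 9.80, 2.74, 5.18, 2.72, 0.356 and 1.43 TPM at E2C and 0, 37.7, 8.98, 24.4, 42.2 and 29.4 TPM at L2C. Its rise was 2.01 (standard error 0.63, limma adjusted p = 0.00891), and it was 3.8 in replicates 4 to 6 but 0.21 in replicates 1 to 3. When only the 2 stages were fitted it was not called (limma adjusted p = 0.0506). At 4C it held 22.3, 65.5 and 19.6 TPM in replicates 1 to 3 and 1.14 and 0.854 TPM in replicates 4 and 5. The change from L2C was -0.55 over all libraries and was not called, whereas replicates 1 to 3 gave 2.12 and replicates 4 to 6 gave -4.01 (limma adjusted p = 0.0622 and limma adjusted p = 2.2e-07). From 4C to 8C it fell by 2.47 (limma adjusted p = 0.00498), and without 4C replicate 2 the fall was by 1.80 (limma adjusted p = 0.0522).

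**Figure D3:**
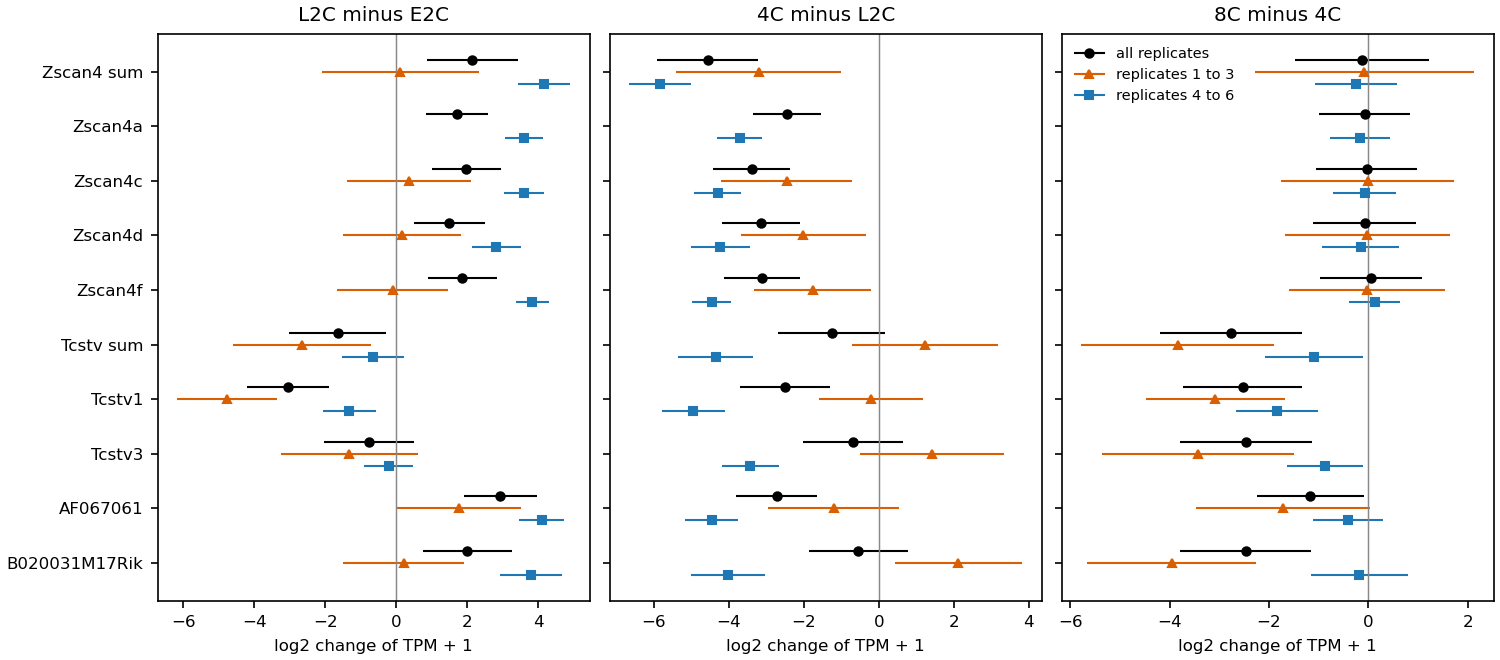
Change of log2(TPM + 1) between consecutive stages for the family sums and the 8 genes that passed the filter, with 95% intervals from limma, over all replicates and within replicates 1 to 3 and 4 to 6. Zscan4a was below the filter among replicates 1 to 3 and has no value there; from L2C to 4C Tcstv3 and B020031M17Rik have opposite signs in the 2 sets (1.42 and -3.42, 2.12 and -4.01).

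From E2C to L2C, then, 2 of the 4 Tcstv copies were called higher and 1 lower, beside 23.7% and 11.2% of all genes. From L2C to 4C 0 were called higher and 2 lower, beside 11.8% and 26.6% of all genes. From 4C to 8C 0 were called higher and 3 lower, beside 11.5% and 8.23% of all genes. The Tcstv sum therefore followed the most abundant copy. The mean was 414 ± 146 TPM at 14 hpa, 478 ± 111 at E2C and 227 ± 156 at L2C (SD over 6 libraries), and it was 120 ± 153 at 4C (SD over 5) and 10.8 ± 8.34 at 8C (SD over 6). The sum fell from E2C to L2C by 1.65 on the log2 scale (standard error 0.68, limma adjusted p = 0.0469), by 2.65 among replicates 1 to 3 and by 0.65 among replicates 4 to 6. This call was lost when 1 of 8 single libraries was left out, and without L2C replicate 1 the fall was by 0.95 (limma adjusted p = 0.253). From L2C to 4C it changed by -1.26 (limma adjusted p = 0.155), where replicates 1 to 3 gave 1.23 and replicates 4 to 6 gave -4.35. Without L2C replicate 1 this change was -1.96, and without 4C replicate 2 it was -1.91, and both were called (limma adjusted p = 0.0146 and limma adjusted p = 0.0278). To 8C the sum fell by 2.77 (standard error 0.71, limma adjusted p = 0.00341), by 3.84 among replicates 1 to 3 and by 1.09 among replicates 4 to 6.

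The makeup of the Tcstv sum changed over these stages. Tcstv1 made up 81.9% ± 1.14 of it at 6 hpa and 74.2% ± 2.74 at E2C (SD over 6 libraries each). Its share was then 32% ± 17.8 at L2C, 14.6% ± 12.3 at 4C and 3.93% ± 5.69 at 8C, with 5 libraries at 4C and 6 at the others. Every library from L2C to 8C was at or below 53.6%, and every library up to E2C was at or above 68.6%. The share of Tcstv3 went the other way, from 17.9% ± 1.13 at 6 hpa to 47.7% ± 18.2 at L2C, 66.5% ± 8.65 at 4C and 81.2% ± 16.8 at 8C. AF067061 and B020031M17Rik made up 0.172% and 0.0288% at 6 hpa, 10.3% and 10.1% at L2C, and 2.86% and 16% at 4C. These shares do not depend on how a library was scaled.

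**Figure D4:**
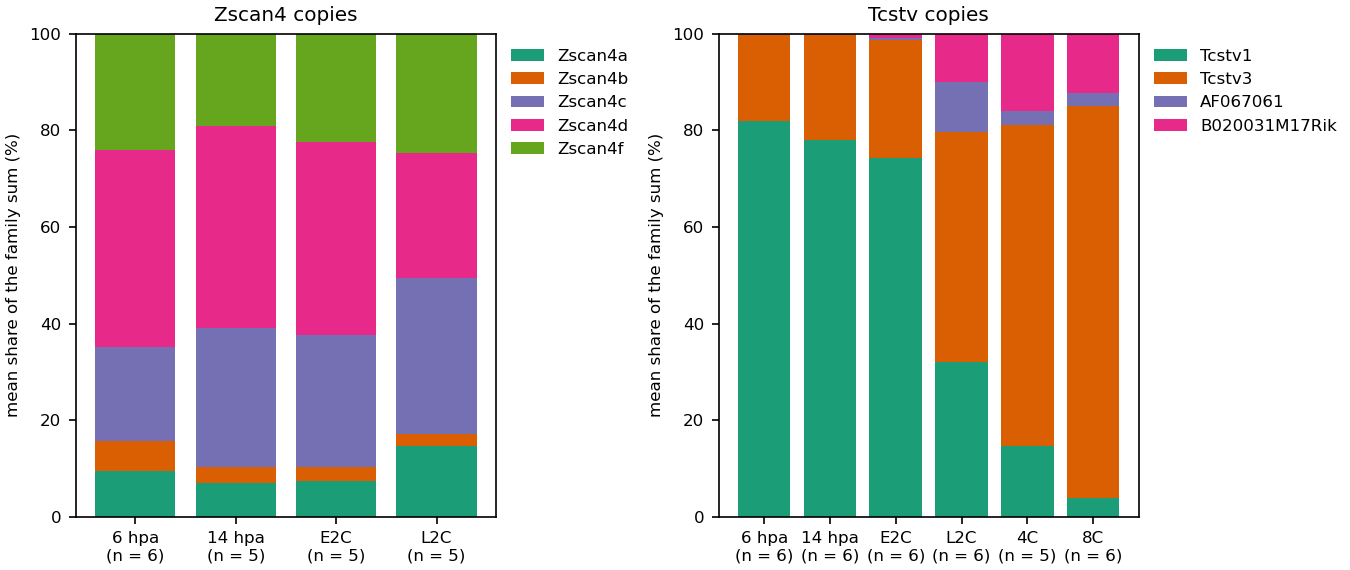
Mean share of each copy in the summed TPM of its family, over libraries with a sum of at least 1 TPM, with the number of libraries under each bar. Tcstv1 goes from 81.9% at 6 hpa to 3.93% at 8C and Tcstv3 from 17.9% to 81.2%.

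From the morula on, single libraries still held some Tcstv3. It was at 35.7 TPM in morula replicate 3 and at most 2.04 in the other 5 morula libraries. In the ICM of SCNT blastocysts the Tcstv sum was 0.640 ± 0.615 TPM (SD, n = 6) and in the TE 1.13 ± 2.04 (SD, n = 6), where TE replicate 5 held 5.27 TPM. The Zscan4 sum did not exceed 0.177 TPM in any SCNT ICM or TE library.

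Whether libraries of one stage with more Zscan4 also held more Tcstv was tested at 14 hpa, E2C and L2C, with p-values adjusted over these 3 stages. At L2C Pearson's r of the log2 sums was 0.989 (exact permutation p = 0.0167, adjusted p = 0.0458, n = 6) and Spearman's rho was 0.771 (exact permutation p = 0.103, adjusted p = 0.262). Without the 2 libraries farthest from the median r was 0.914 (n = 4). Replicate 1 was lowest and replicates 4 to 6 highest for both sums, and a set of 3 replicates is too small for a value of its own. At 14 hpa r was 0.931 (exact permutation p = 0.0306, adjusted p = 0.0458, n = 6) and rho 0.657 (exact permutation p = 0.175, adjusted p = 0.262), but without the 2 farthest libraries r was 0.310, so the relation rested on those. At E2C r was 0.168 (exact permutation p = 0.794, n = 6) and rho 0.543 (exact permutation p = 0.297). There replicate 1, with the highest Zscan4 sum, held a Tcstv sum of 444 TPM, within the 311 to 624 TPM of the others.

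**Figure D5:**
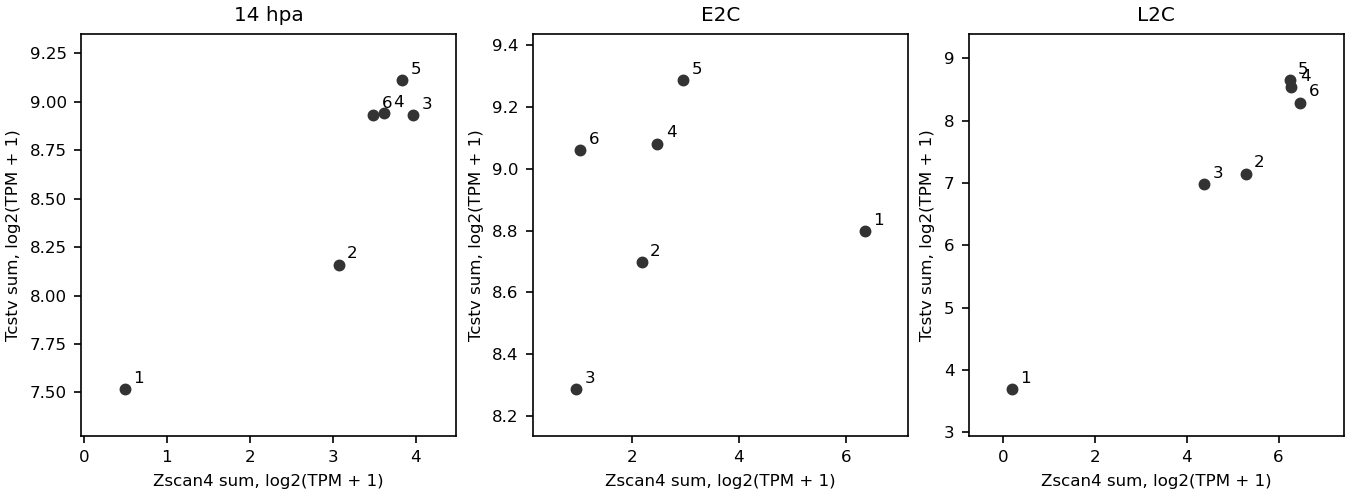
Log2(TPM + 1) of the Tcstv sum against that of the Zscan4 sum in the libraries of 14 hpa, E2C and L2C, each point numbered by its replicate. Replicate 1 is lowest in both at 14 hpa and L2C and highest for Zscan4 at E2C (80.6 TPM).

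Dux, the activator upstream of both families in embryonic stem cells, was scarcely detected. It was at most 2.07 TPM at 6 hpa, 1.86 at E2C and 1.10 at L2C, and did not pass the filter. The 1.10 TPM was in L2C replicate 1, and Dux was at 0 in E2C replicate 1. Whether reads of Dux are shared with other copies was not examined. The other 10 activators of the 2-cell program on the list were tested, and from E2C to L2C 4 rose and 3 fell, with a median change of 0.28 beside 0.26 over all genes, of which 23.7% were called higher and 11.2% lower. Those that rose included Dppa4 (by 3.54), a partner of DPPA2 at the Dux locus, the homeobox gene Obox3 (by 3.01) and the nuclear receptor gene Nr5a2 (by 1.24). The homeobox genes Obox1 and Obox5 fell by 3.61 and 3.28, and Obox2 by 2.25. From L2C to 4C Dppa2 and Dppa4 rose by 2.15 and 1.39, while Obox1, Obox2, Obox3 and Obox5 fell, with changes of -2.38, -3.40, -2.54 and -3.57.

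Of 26 other listed genes of the 2-cell stage 25 were tested, and from E2C to L2C 14 rose and 0 fell, where 23.7% of all genes were called higher and 11.2% lower, with a median change of 1.44 beside 0.26 over all genes. Among them were Usp17lb, a gene for a deubiquitinating enzyme (by 4.77), Gm16513 (by 4.11) and Tdpoz4, a gene for a protein with TRAF and POZ domains (by 3.70). Tdpoz1, Tdpoz5 and Ubtfl1 rose by 3.32, 3.14 and 2.49. From L2C to 4C 4 of the 25 fell and 1 rose, beside 26.6% and 11.8% of all genes, with a median of -0.10 beside -0.33. The 4 tested Zscan4 copies had a median of -3.12 at that step, and the difference from the list was not tested. Gm13078, Usp17lc, Usp17ld and Pramef6 fell by 2.08, 1.58, 1.24 and 1.22, and Gm16513 rose by 1.71. From 4C to 8C 9 fell and 3 rose, beside 8.23% and 11.5% of all genes. Between the Tcstv copies on chromosome 13 lie 3 more reference genes, and the 2 of them that were tested also rose from E2C to L2C, BC147527 by 1.73 (limma adjusted p = 0.0368) and Gm20767 by 1.96 (limma adjusted p = 0.00976). They held 20.2 and 20.9 TPM at 4C, against 22.7 and 14.8 at L2C.

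Of the known repressors of the 2-cell program all 19 on the list were tested, and their calls were near the shares over all genes. From E2C to L2C 5 rose and 2 fell, beside 23.7% and 11.2% of all genes. Hdac1 (by 2.15), Trim28, the corepressor of zinc finger proteins (by 1.76), Mga (by 1.58) and the H3K9 methyltransferase gene Ehmt2 (by 1.52) rose, and Max and Kdm1a fell (changes of -1.32 and -1.22). From L2C to 4C 3 rose and 5 fell, beside 11.8% and 26.6%, among them Kdm1a and Hdac1 (changes of 1.42 and 1.33) and Lin28a, Max, Pcgf6 and Rnf2 (changes of -1.74, -1.54, -1.5 and -1.29). Of 8 listed partners of ZSCAN4 and telomere genes 6 were tested. Terf1, a protein of telomeric repeats, rose by 2.31 from E2C to L2C, and Uhrf1, which binds ZSCAN4 and maintains DNA methylation, fell by 2.45 from L2C to 4C. No other listed gene of this group was called at these steps.

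The genes outside both families whose level over the 53 SCNT libraries was most like the Zscan4 sum were Gm428 (Pearson r 0.888), LOC100502896 (0.885), Gm11757 (0.861), LOC101055863 (0.858), LOC100862015 (0.857), Gm11236 (0.848), Gm11758 (0.847) and Gm13871 (0.847). Gm428 held a mean of 22.7 TPM at 6 hpa, 77.8 at L2C and 0.440 at 4C, and only 0.555 in L2C replicate 1. For the Tcstv sum they were AA792892 (0.963), Ripk2 (0.959), Nexn (0.951), Wfdc3 (0.950), Npm2 (0.948), Ldhb (0.944), Khdc1b (0.943) and Oog1 (0.942). Several of these, such as Npm2, the oocyte nucleoplasmin, and Oog1, an oogenesin, are known transcripts of the oocyte. Npm2 held a mean of 532 TPM at 6 hpa, 161 at L2C and 25.7 at 4C. These correlations span all stages in the same libraries and describe likeness only. Gm11757, Gm11758 and Gm13871 had nearly equal means (7.88, 7.97 and 7.73 TPM at 6 hpa). Whether the named genes share reads with each other was not examined.

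In fertilized blastocysts both families were close to 0. The levels of the targeted genes were set against the labels. Mcrs1 was at 41.1 to 86.8 TPM in the 4 Mcrs1 MO libraries and at 219 to 310 TPM in the 4 control libraries, and Max was at 0.443 to 16.3 TPM in the 4 Max MO libraries and at 8.42 to 38 TPM in the controls. Within the ICM and within the TE, every library of a targeted group was below both controls for its target. The same held without targeting for Mcrs1 in the Max MO libraries (194 to 242 TPM) and for Max in the Mcrs1 MO TE (15.7 and 17.6 TPM). Max in the TE overlapped between the morpholino groups (8.68 and 16.3 TPM with Max MO), so there its level does not tell their labels apart. The Zscan4 sum was 0.0661 TPM in 1 control ICM library, 0.0867 TPM in 1 control TE library and 0 in the other 10. AF067061 and Zscan4d were at 0 in all 12 libraries. The Tcstv sum was 0.244 and 0 TPM in the control ICM, 0 and 1.02 with Max MO and 0 and 1.93 with Mcrs1 MO. In the TE it was 0 and 0.168 TPM in the controls, 0 and 0.205 with Max MO, and 1.08 and 1.37 with Mcrs1 MO. In the Mcrs1 MO TE both libraries were above both controls, and all of it was Tcstv1. For what share of all genes this held was not computed, and these values are near the floor. Control TE replicate 1, at 0 TPM, had the fewest aligned gigabases of the 68 libraries (1.00). The Mcrs1 MO TE libraries had 2.25 and 2.09.

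No member reached a mean of 1 TPM over these 12 libraries, so they were tested only in a fit of all 19642 genes above 0. None was called. The share of genes called was 10.6% for Max MO in the ICM and 0.865% in the TE, and 3.67% and 1.95% for Mcrs1 MO. Tcstv1 in the Mcrs1 MO TE was the only member with an unadjusted limma p under 0.05. In that comparison 3195 of the 19642 genes had one. The Tcstv sum of the Mcrs1 MO TE differed from the control by 1.04 (95% interval from -0.13 to 2.21, limma adjusted p = 0.384) and Tcstv1 by 1.15 (limma adjusted p = 0.213, unadjusted p = 0.0253). The differences of the Zscan4 sum ran from -0.06 to -0.05 and were not called.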

How the data were processed

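Per the labels and the study's methods, the authors used Cutadapt 1.16 for trimming, HISAT2 for alignment to mm10 and StringTie for quantification, and deposited 1 table per library. The deposited TPM is on the scale of the loci assembled in that library and was handled as a score, since reference genes stand beside those loci. The deposited FPKM and coverage signal gave only the aligned gigabases. The tables hold no counts, so no counting interval is given, and a depth per gene is unknown. Rows of a gene were summed. Groups came from the labels, and 1 4C library, replicate 5 in its label and 6 in its file name, kept its label.

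Stages were compared with limma 3.58.1 (R 4.3.3, trended eBayes) on log2(TPM + 1) over genes whose mean TPM reached 1, and with exact two-sided permutation tests (scipy 1.17.1). On simulated data with 200 genes changed 4-fold, limma called 64% of them in the L2C against E2C design over 11867 genes, with 6 of 134 calls false, and 38.5% in the Max MO ICM design over 11219 genes, with 4 of 81 false. These families, their rule by gene name and the gene lists were chosen with earlier results of these data known. All members were named; from the lists, the genes called from E2C to L2C or from L2C to 4C, at most 6 a list and comparison by size, and Dux; and the 8 genes most like each sum. Same-numbered libraries deviated together with every r over 0.1 only between 6 and 14 hpa (0.142 to 0.390); between other stages the lowest r was -0.0178 to 0.0186. Alternatives were another pseudocount, filter or scaling, a replicate block, fits of 2 groups, sets of replicates, the largest row per gene and single libraries left out.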

Additional observations from a re-analysis of the deposited data

Results flagged for a closer look

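In 47 combinations of a gene or sum with a stage of 5 or 6 libraries and a mean of at least 1 TPM, 16 had a highest or lowest library whose gap to the next was above Dixon's 95% critical value. Chance would give about 2.35 if the values were normally spread and independent. The values were raw TPM, which need not be normally spread, and the copies of a family are not independent of each other. The excess over 2.35 is therefore not a measure of odd libraries. E2C replicate 1 was far above the rest for Zscan4a (11.2 TPM, others at most 0.426), Zscan4c (26.2, others at most 1.73), Zscan4d (17.1, others at most 4.14), Zscan4f (23.2, others at most 0.856), the Zscan4 sum (80.6, others at most 6.82) and AF067061 (6.23, others at most 1.46). The other 2-cell genes of the list summed to 351 TPM in that library and to 196 to 262 TPM in the other E2C libraries. 14 hpa replicate 1 was far below the rest for Zscan4f (0.0845 TPM, others at least 1.85) and Tcstv3 (26.4 TPM, others at least 89.5); it had 7438 genes at 1 TPM or more, against 8441 to 10564 in the other 14 hpa libraries. 4C replicate 2 was far above the rest for Tcstv1 (34.3 TPM, others at most 5.08), AF067061 (11.8, others at most 1.56) and the Tcstv sum (383, others at most 116). Morula replicate 3 was far above the rest for Tcstv3 (35.7 TPM, others at most 2.04), B020031M17Rik (3.85, others at most 1.25) and the Tcstv sum (42.3, others at most 3.29). The Zscan4 sum of 6 hpa replicate 2 was 10.2 TPM, with the others at most 5.76. The Tcstv sum of TE replicate 5 was 5.27 TPM, with the others at most 0.552. The causes were not tested.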

How the results depend on the processing

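The values rest on 5 or 6 libraries a stage and 2 a morpholino group with no counts, so the depth behind a low TPM is unknown. The replicate block changed no call. The Zscan4 sum from E2C to L2C was not called with a pseudocount of 0.1 (2.16), with only the 2 stages fitted (2.14), by the exact permutation test (2.14) or among replicates 1 to 3 (0.12), and the permutation test did not call its fall to 4C either (-4.56). Replicates 1 to 3 and 4 to 6 gave -0.114 and 1.23 from 6 to 14 hpa, and 0.658 and -1.49 from 14 hpa to E2C. The Tcstv sum from E2C to L2C was not called with a pseudocount of 0.1 (-1.67), without a filter (-1.65), rescaled to reference genes (-1.33), among replicates 4 to 6 (-0.653), by permutation (-1.65) or without both first libraries, a choice made after the data were seen (-0.963). From L2C to 4C it was 1.23 among replicates 1 to 3, and it was called among replicates 4 to 6 (-4.35) and without both first libraries (-1.96). From 4C to 8C it was not called among replicates 4 to 6 (-1.09) or by permutation (-2.77).

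Among replicates 4 to 6, 1 Zscan4 copy was higher from 6 to 14 hpa, 2 lower from 14 hpa to E2C, 4 Tcstv copies lower from L2C to 4C and 1 from 4C to 8C. Among replicates 1 to 3, 1 Tcstv copy was higher at E2C, 0 copies of either family were higher at L2C, and 1 Zscan4 and 0 Tcstv copies were lower at 4C. With only the 2 stages, 1 Tcstv copy was higher at E2C, and 0 Zscan4 and 1 Tcstv copy at L2C. A mean TPM of at least 5 left no Zscan4 copy to test, and 1 Tcstv copy higher at L2C and 1 lower at 4C; a pseudocount of 0.1 left 3 Zscan4 copies and 1 Tcstv copy higher at L2C and 4 Tcstv copies lower at 8C. In the morpholino libraries any filter left no member. Rescaled to reference genes, the Zscan4 sum was 85.6 TPM at L2C and the Tcstv sum 816 at 6 hpa, 638 at 14 hpa, 735 at E2C and 394 at L2C.

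Changes of single copies that were not called and changed sign were, among replicates 1 to 3, B020031M17Rik -0.147, Zscan4d -0.316 and Zscan4f -0.0104 from 6 to 14 hpa, Zscan4c 0.655, Zscan4d 0.432 and Zscan4f 0.845 to E2C, B020031M17Rik 2.12 and Tcstv3 1.42 to 4C, and Zscan4f -0.0283 to 8C; Zscan4f at L2C, called over all libraries, was -0.103. Zscan4a from 14 hpa to E2C was -0.312 with a pseudocount of 0.1, -0.00178 after quantile normalization, -0.544 among replicates 4 to 6 and -0.437 without both first libraries. The causes were not tested.

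Leaving out 1 library gave 1.8 to 3.07 for the Zscan4 sum from E2C to L2C, called each time. The Tcstv sum ran from -1.94 to -0.949 there, from -1.96 to -0.788 from L2C to 4C, and 1 to 4 Tcstv copies were lower at 8C. Of the morpholino contrasts, the Tcstv sum ran from -0.158 to 0.857 (Max MO, ICM), -0.158 to 1.39 (Mcrs1 MO, ICM) and -0.112 to 0.157 (Max MO, TE), where a lone library was assumed to vary like the others. Sign changes of uncalled copies kept within -0.0417 to 0.201 (B020031M17Rik) and -0.457 to 0.0124 (Tcstv3) from 6 to 14 hpa, -0.437 to 0.265 (Zscan4a), -0.855 to 0.0744 (Zscan4c) and -0.73 to 0.148 (Zscan4f) to E2C, -1.33 to 0.079 (B020031M17Rik) to 4C, and -0.0522 to 0.012 (Zscan4c) and -0.0365 to 0.0725 (Zscan4f) to 8C.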
